A study of Mus musculus with 8 samples.

Results

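The circadian clock genes described here are 10 genes fixed by name: the activators Arntl, Clock and Npas2, the repressors Per1, Per2, Per3, Cry1, Cry2 and Nr1d1, and the output gene Dbp. Each had 1 row in every deposited file, among 22923 gene symbols in all, and no member was listed at 0. Liver RNA had been sequenced from mice of strain C57BL/6 in 4 groups: Xbp1-/- on a high-fat diet, Xbp1-/- on chow, Xbp1flox on a high-fat diet and Xbp1flox on chow. The knockout is specific to the liver per the series title, and the flox mice served as its controls. The high-fat diet carried an equivalent of high-fructose corn syrup, and feeding lasted 4 weeks. Each group held 4 mice, pooled into 2 libraries, and is represented by 1 deposited value per gene. The driver of the deletion, the age and sex of the mice and the hour at which livers were taken are not stated in the labels.

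The mammalian clock is a feedback loop of transcription. ARNTL (also called BMAL1) pairs with CLOCK or with its paralogue NPAS2, and the pair switches on the Per, Cry, Nr1d1 and Dbp genes through E-box sequences. PER and CRY proteins then block the pair, and NR1D1 (REV-ERB alpha) represses Arntl itself through elements that the ROR receptors also bind. In mouse liver the mRNAs of Arntl and Npas2 peak at about the opposite time of day from those of Nr1d1 and Dbp, with the Per mRNAs following Dbp, so a single collection hour shows 1 point of these rhythms. The hour may have been shared by the groups or not, and its part in any difference below was not tested.

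The values are RPKM, reads scaled to transcript length and to the size of the library, so levels can be set side by side between genes. Without values per library the spread between replicates is unknown, no p-value or error can be given, and no order of levels could be judged against a spread. A log2 change is log2 of the ratio after 1 RPKM was added to each value, which understates the change of low genes. A gene is called past the threshold at a log2 change of 1 or more in either direction, and rose or fell are written only of such genes. Xbp1, the targeted gene, stood at 34.1 RPKM in knockout and 90.7 RPKM in flox livers on the high-fat diet, and at 44.2 RPKM in knockout and 112 RPKM in flox livers on chow. The deposited values summed to 367414 RPKM in knockout high-fat livers, against 461392 to 513694 RPKM in the other 3 groups. The tissue label was checked against hepatocyte markers. Apoa1 (4793 to 12127 RPKM), Ttr (2904 to 5347 RPKM) and Trf (3119 to 4938 RPKM) were abundant in all 4 groups. The albumin gene Alb was listed at 0 in all 4. A further listed marker, Serpina1c, was at 3004 RPKM in knockout high-fat livers and listed at 0 in the other 3 groups.

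The clock genes had a like order of levels in all 4 groups. Dbp and Nr1d1 were the highest members everywhere, Cry2 came next, and Cry1, Arntl and Npas2 were the lowest, in that order. Of all listed symbols, 3.97% to 4.80% were above Dbp in the 4 groups, whereas 45.9% to 48.9% were above Arntl. Of the 10 members, 8 reached 1 RPKM in at least 1 group, and Arntl and Npas2 did not.

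**Figure D1:**
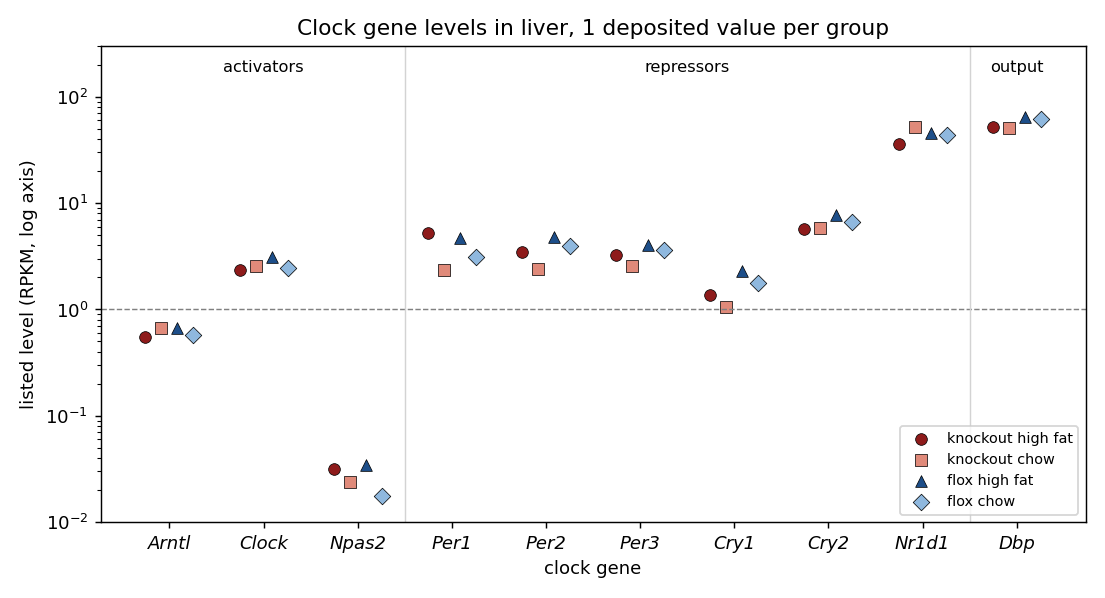
Listed level (RPKM, log axis) of each clock gene in knockout high-fat, knockout chow, flox high-fat and flox chow livers, 1 point per group with no error known. The dashed line marks 1 RPKM: Arntl and Npas2 lie below it in all 4 groups, and Nr1d1 and Dbp lie between 36.3 and 63.8 RPKM.

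Among the activators, Arntl, the partner without which the loop does not run, was listed at 0.545 RPKM in knockout high-fat and 0.664 RPKM in knockout chow livers, against 0.666 RPKM in flox high-fat and 0.574 RPKM in flox chow livers. The highest of these 4 values was 1.22 times the lowest, the narrowest span of any member. Clock, which encodes the partner of ARNTL, was listed at 2.36 RPKM in knockout high-fat and 2.58 RPKM in knockout chow livers, against 3.13 RPKM in flox high-fat and 2.46 RPKM in flox chow livers. Neither gene ordered the groups by genotype, since the knockout values lay below the flox value on the high-fat diet and above it on chow. Npas2, the paralogue of Clock, was at hundredths of an RPKM, with 0.0315 RPKM in knockout high-fat, 0.0241 RPKM in knockout chow, 0.0344 RPKM in flox high-fat and 0.0175 RPKM in flox chow livers. The depth behind these 4 values is unknown, so ratios between them carry little weight.

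Among the Per repressors, Per1, which is also an early response gene of glucocorticoid and cyclic AMP signals, was listed at 5.24 RPKM in knockout high-fat and 2.33 RPKM in knockout chow livers, against 4.74 RPKM in flox high-fat and 3.12 RPKM in flox chow livers. The 2 high-fat groups had the 2 highest values, and how many of all genes had that order was not counted. Per2, a target of the ARNTL and CLOCK pair that ties the loop to metabolic receptors, was listed at 3.47 RPKM in knockout high-fat and 2.39 RPKM in knockout chow livers, against 4.79 RPKM in flox high-fat and 3.95 RPKM in flox chow livers. Per3, the least essential of the family for rhythm in mice, was listed at 3.27 RPKM in knockout high-fat and 2.59 RPKM in knockout chow livers, against 4.08 RPKM in flox high-fat and 3.62 RPKM in flox chow livers. For Per2 and Per3 both knockout values lay below both flox values as deposited, an order found in 29.5% of 10319 genes tested, and for Per1 they did not. Per1 led the family in knockout high-fat livers, at 1.51 times Per2, while the ratio was 0.977 in knockout chow, 0.989 in flox high-fat and 0.789 in flox chow livers.

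Both cryptochrome genes, whose products bind and block the activator pair, were lower in knockout than in flox livers on either diet. Cry1 was listed at 1.38 RPKM in knockout high-fat and 1.05 RPKM in knockout chow livers, against 2.29 RPKM in flox high-fat and 1.77 RPKM in flox chow livers. Cry2 was listed at 5.72 RPKM in knockout high-fat and 5.82 RPKM in knockout chow livers, against 7.66 RPKM in flox high-fat and 6.63 RPKM in flox chow livers. The groups of the 2 genotypes do not overlap for either gene as deposited. In all, 5 of the 10 members (Per2, Per3, Cry1, Cry2 and Dbp) had both knockout values below both flox values as deposited, beside 29.5% of 10319 genes. After centring the groups on a median log2 ratio of 0 these were 3 members (Cry1, Cry2 and Dbp), beside 19.4% of the genes. After equalising the group sums with the 50 most abundant genes set aside, no member had that order, beside 10.6% of the genes, and Arntl had both knockout values above both flox values, as did 35.1% of the genes. The separation therefore depends on the scaling between groups. Cry1 stood at 0.241 of Cry2 in knockout high-fat and 0.180 of Cry2 in knockout chow livers, against 0.299 in flox high-fat and 0.268 in flox chow livers.

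The nuclear receptor gene Nr1d1 was listed at 36.3 RPKM in knockout high-fat and 51.5 RPKM in knockout chow livers, against 45.4 RPKM in flox high-fat and 43.7 RPKM in flox chow livers. The knockout groups held both the lowest and the highest of these values. Dbp, which encodes a PAR bZIP factor that carries the rhythm to drug-metabolising genes, was listed at 52.4 RPKM in knockout high-fat and 50.2 RPKM in knockout chow livers, against 63.8 RPKM in flox high-fat and 62.2 RPKM in flox chow livers. As deposited, Dbp was therefore lower in both knockout groups, while the 2 diets differed little within a genotype. After scaling without the 50 most abundant genes this contrast was lost. Its log2 change for knockout against flox was then 0.02 on the high-fat diet and -0.16 on chow. For high fat against chow it was 0.34 in knockout and 0.17 in flox livers. In the GENCODE annotation 18.0% of the exon bases of Dbp also lie in exons of Sphk2, and 8.55% of those of Nr1d1 in exons of Thra, in both cases on the opposite strand. Sphk2, a sphingosine kinase gene, was listed at 15.3 RPKM in knockout high-fat and 19.2 RPKM in knockout chow livers, against 21.6 RPKM in flox high-fat and 24.1 RPKM in flox chow livers, and Thra, a thyroid hormone receptor gene, at 2.04 to 2.80 RPKM over the 4 groups. Whether reads were counted by strand is not given in the sources used here, so the values of Dbp and Nr1d1 may hold some reads of these neighbours. Nr1d1 stood at 0.693 of Dbp in knockout high-fat and 1.02 of Dbp in knockout chow livers, against 0.711 in flox high-fat and 0.703 in flox chow livers.

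The promoters of 3 repressors are shown because their genes had the largest diet difference (Per1), the lowest knockout-to-flox ratio on both diets (Cry1) or the element that DBP binds (Per3). The runs are the 250 bases before the transcript start from RefSeq on GRCm38.p6, 5′ to 3′ on the gene's strand, with the E-box CACGTG, its variant CACGTT (which reads AACGTG where it lies on the other strand) and the D-box TTATGTAA in capitals. Per1 has another start in that source, whose window held none of these letters and is not shown.
Per1, chr11:69098699-69098948, plus strand: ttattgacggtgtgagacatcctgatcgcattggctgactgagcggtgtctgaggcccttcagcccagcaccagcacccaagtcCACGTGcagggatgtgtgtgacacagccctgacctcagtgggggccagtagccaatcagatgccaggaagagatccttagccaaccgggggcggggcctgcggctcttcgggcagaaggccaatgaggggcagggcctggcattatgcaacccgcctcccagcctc
Cry1, chr10:85185055-85185304, minus strand: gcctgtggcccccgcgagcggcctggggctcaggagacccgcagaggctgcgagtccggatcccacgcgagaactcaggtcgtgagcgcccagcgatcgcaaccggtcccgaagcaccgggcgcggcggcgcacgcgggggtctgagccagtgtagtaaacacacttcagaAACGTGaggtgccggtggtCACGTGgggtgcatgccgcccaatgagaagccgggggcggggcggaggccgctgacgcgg
Per3, chr4:151044666-151044915, minus strand: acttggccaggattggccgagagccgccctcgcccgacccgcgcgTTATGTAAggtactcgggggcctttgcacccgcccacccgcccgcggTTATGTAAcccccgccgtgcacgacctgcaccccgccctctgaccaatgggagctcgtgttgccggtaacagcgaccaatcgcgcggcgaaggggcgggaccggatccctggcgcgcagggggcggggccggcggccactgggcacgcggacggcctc

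Of the 10 members, 9 had a promoter entry, in 13 windows of 300 bases (250 before and 50 after each start). Both strands were searched. CACGTG was found in windows of 2 of the 9 genes, Per1 and Cry1, against 8.09% of all 27025 genes with a window. CACGTT, which shares its first 5 letters with CACGTG, was found for Cry1, Cry2 and Nr1d1, against 5.44% of all genes. For Cry2 and Nr1d1 the bases after the RefSeq start did not match a GENCODE transcript, as they did in the other windows. The D-box, searched as TTATGTAA or TTACGTAA, occurred 2 times in the Per3 window and in windows of 1.23% of all genes. A ROR element, searched as TAGGTCA or TGGGTCA, lay 30 bases after a start of Arntl and in windows of 7.35% of all genes. The UPRE letters TGACGTGG, a sequence bound by XBP1 that shares ACGTG with the E-box, were found in no member window and in windows of 0.714% of all genes. A match or its absence describes these letters in these windows and nothing more.

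On the high-fat diet, 9 of the 10 clock genes were lower in knockout than in flox livers as deposited (6 of them under both rescalings described below), and none passed the threshold, where 2.93% of 10327 genes tested did. The median log2 change was -0.29 over the members and -0.13 over all genes tested, of which 70.1% were lower. Cry1 had the largest difference, a knockout value 0.602 times the flox value (log2 change -0.47), and 13.2% of the genes tested were at or below that change. By the ratio, Per2 (0.726 times, log2 change -0.37) and Cry2 (0.747 times, log2 change -0.37) came next, then Clock (0.756 times), Nr1d1 (0.799 times), Per3 (0.803 times), Arntl (0.819 times), Dbp (0.821 times) and Npas2 (0.916 times). Per1 was the member on the other side, at 1.11 times the flox value. Activators averaged a log2 change of -0.14 and repressors -0.27, a difference of 0.14 between the arms that is far under the threshold. Without a pseudocount the means were -0.27 for activators and -0.35 for repressors, a difference of 0.08. Centring the log2 ratios of every group on a median of 0 moved the median of all genes by 0.15. Equalising the group sums with the 50 most abundant genes set aside moved it by 0.25. Under the second of these Arntl, Npas2 and Dbp were slightly higher in knockout livers (log2 changes of 0.01, 0.01 and 0.02). Per3 (-0.01) and Nr1d1 (-0.02) were barely lower there.

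On chow, the arms pointed to opposite sides, by small amounts. All 3 activators were higher in knockout than in flox livers and 5 of 6 repressors lower, where 54.2% of all genes tested were lower. Again none of the 10 members passed the threshold, where 1.62% of 10322 genes tested did. The mean log2 change was 0.05 for activators and -0.26 for repressors, a difference of 0.31. That difference lay between 0.13 and 0.64 under the 10 alternative settings and reached the threshold in none of them. Without a pseudocount the means were 0.25 for activators and -0.39 for repressors. Adding 1 RPKM brings the changes of Arntl and Npas2, both under 1 RPKM, near 0, so the activator mean depends on it. Per2 stood at 0.604 times (log2 change -0.55) and Cry1 at 0.591 times (log2 change -0.44) the flox value, and 4.27% and 6.32% of the genes tested were at or below those changes. Per3 (0.716 times) and Per1 (0.748 times) followed, with Dbp at 0.808 times and Cry2 at 0.878 times. Nr1d1 went the other way from the remaining repressors, at 1.18 times the flox value (log2 change 0.23). The median over the 10 members was -0.23, against -0.02 over all genes tested.

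**Figure D2:**
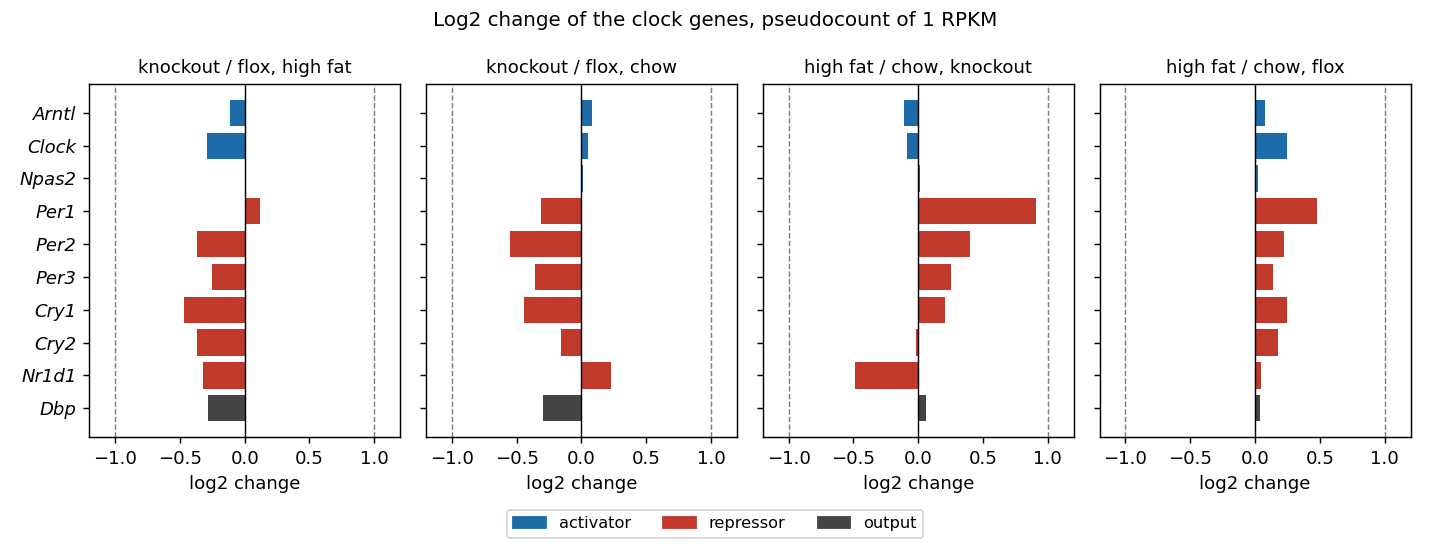
Log2 change (pseudocount of 1 RPKM) of each clock gene in the 4 comparisons, with activators in blue, repressors in red and the output gene Dbp in black. Dashed lines mark the threshold of 1 in either direction. No bar reaches it, and Per1 in the diet comparison of knockout livers comes nearest, at 0.91.

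The 2 genotype comparisons share no group. Per2, Per3, Cry1 and Cry2 were lower in knockout livers in both, under either rescaling too, and Dbp in both as deposited. Of all genes tested, 70.1% were lower on the high-fat diet and 54.2% on chow as deposited. The share lower in both was not counted. After scaling without the 50 most abundant genes, Per3 on high fat (-0.01) and Cry2 on chow (-0.03) were close to no difference. Arntl, Clock, Npas2, Per1 and Nr1d1 changed side between diets. The difference of the 2 genotype changes (high fat minus chow) was largest for Nr1d1, at -0.55, followed by Per1 at 0.43 and Clock at -0.34. None of the members reached 1, and 1.23% of 10319 genes did. For knockout against flox, no member passed a lower threshold of 1.5-fold on the high-fat diet (11.5% of genes did) or on chow (4.93%). The same held for high fat against chow in flox livers (2.91%) and for the difference of the genotype changes (5.35%). This threshold, too, was set on values with 1 RPKM added, and some plain ratios were beyond 1.5-fold. For knockout against flox these were Cry1 on the high-fat diet (0.602 times) and on chow (0.591 times), and Per2 on chow (0.604 times). With the diet in flox livers they were Per1 (1.52 times) and Npas2 (1.96 times).

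In knockout livers, the diet difference was led by Per1. It stood on the high-fat diet at 2.25 times its chow value (log2 change 0.91), and 0.842% of 10328 genes tested had a change that high or higher. This is below the threshold, which 1.46% of the genes passed in either direction and 0.668% on the high side. At 1.5-fold, which 7.38% of genes passed, Per1 was the 1 member past the threshold. Per1 is past it without a pseudocount (log2 change 1.17), with a pseudocount of 0.1 RPKM (1.13) and after either rescaling (1.04 and 1.15). The call therefore depends on how a low value and the lower sum of the knockout high-fat group are treated. Per2 stood at 1.46 times, Per3 and Cry1 at 1.26 and 1.31 times, and Cry2 at 0.983 times the chow value (log2 change -0.02, but 0.12 and 0.23 after the rescalings), while Nr1d1 stood at 0.704 times (log2 change -0.49). Repressors averaged a log2 change of 0.21 and activators -0.06, and the arm difference of -0.27 did not reach the threshold.

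In flox livers, all 10 clock genes were higher on the high-fat diet than on chow, each by less than the threshold, which 0.639% of 10322 genes passed. Of the genes tested, 52.5% were lower on the high-fat diet. Arntl and Npas2, under 1 RPKM, are among the 10 members but not among the genes tested. Per1 was again first, at 1.52 times the chow value (log2 change 0.48), and 2.09% of the genes tested were at or above that change. Clock (1.27 times) and Cry1 (1.29 times) came next among members over 1 RPKM, and Nr1d1 (1.04 times) and Dbp (1.03 times) stood closest to their chow values. Npas2 had a ratio of 1.96 between 2 values of hundredths of an RPKM. The median over the members was 0.16, against -0.01 over all genes tested. Activators averaged 0.12 and repressors 0.22, and the sign of the arm difference (-0.10) turned without a pseudocount (0.23), where Npas2 counts in full.

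**Figure D3:**
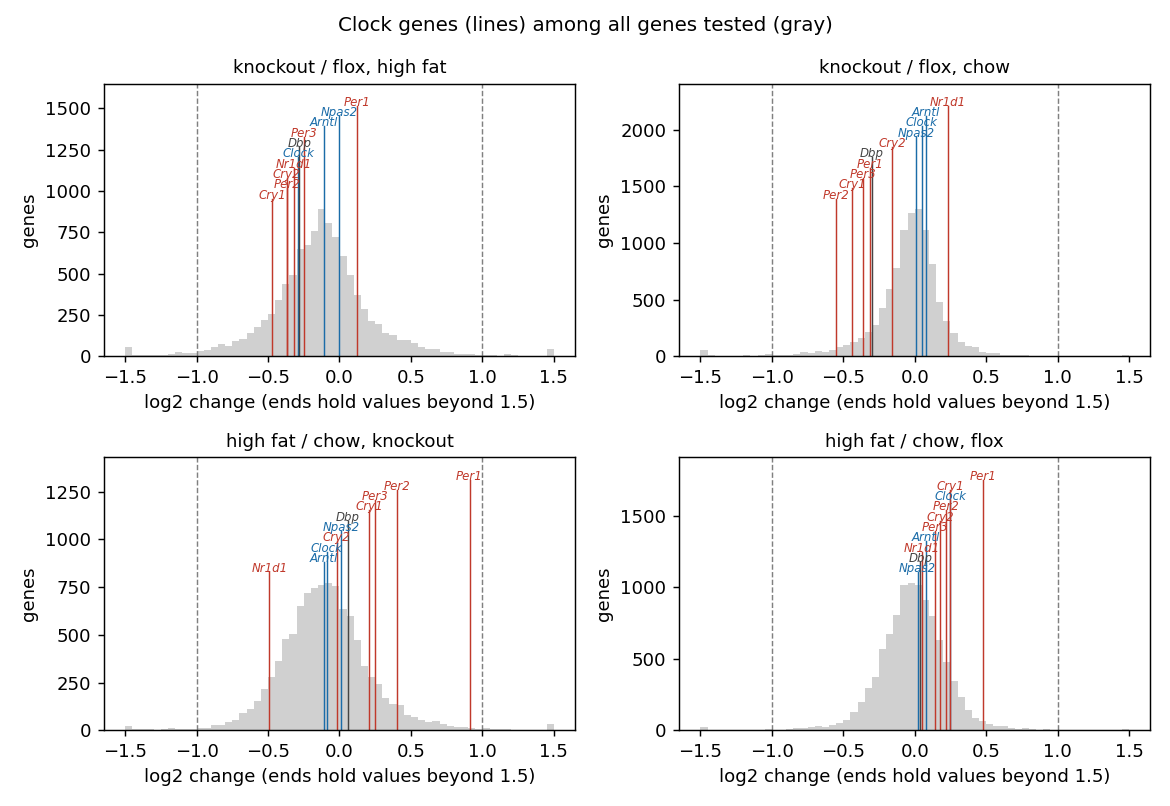
Log2 changes of the clock genes (colored lines: activators blue, repressors red, Dbp black) over the distribution of all genes tested (gray, number of genes per bin) in the 4 comparisons. Arntl and Npas2 are drawn although they missed the filter of 1 RPKM. No line reaches a dashed threshold line at 1, and Per1, at 0.91 in the diet comparison of knockout livers, lies nearest to it.

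Of 11 further loop partners, 9 could be tested and none passed the threshold in any of the 4 comparisons. Gm129 (Ciart, or CHRONO), a repressor of the activator pair, stood at 5.61 RPKM in knockout and 11.3 RPKM in flox livers on the high-fat diet (log2 change -0.90), and at 6.59 RPKM in knockout and 9.63 RPKM in flox livers on chow (log2 change -0.49). The PAR bZIP genes Hlf (log2 changes of -0.46 on high fat and -0.43 on chow) and Tef (-0.41 and -0.28) lay on the same side as their relative Dbp. Nr1d2, the paralogue of Nr1d1, differed by -0.06 on the high-fat diet and 0.02 on chow. The list's median for knockout against flox was -0.41 on the high-fat diet and -0.23 on chow, against -0.13 and -0.02 over all genes tested. Its median for high fat against chow was 0.10 in knockout and 0.18 in flox livers, against -0.11 and -0.01 over all genes.

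The kinases, ubiquitin ligases and cofactors that act on clock proteins stood close to the background. Of 17 such genes, 16 could be tested and none passed the threshold in any of the 4 comparisons. Their medians for knockout against flox were -0.14 on the high-fat diet and -0.03 on chow, against -0.13 and -0.02 over all genes. Csnk1d, which encodes a casein kinase that phosphorylates PER proteins, was listed at 11.8 RPKM in knockout high-fat and 12.2 RPKM in knockout chow livers, against 12.8 RPKM in flox high-fat and 11.4 RPKM in flox chow livers. The largest changes were Csnk2a1 (-0.42) for knockout against flox on the high-fat diet, Hdac3 (-0.24) for the same on chow, Wdr5 (-0.38) for high fat against chow in knockout livers and Tipin (-0.21) for the same in flox livers.

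Among 18 genes with known daily rhythms in liver, all could be tested, and 4 passed the threshold in at least 1 of the 4 comparisons, as did 4.26% of 10319 genes tested. Upp2, a uridine phosphorylase gene, fell on the high-fat diet to 103 RPKM in knockout livers, against 262 RPKM in flox livers (log2 change -1.34), and was listed on chow at 136 RPKM in knockout and 248 RPKM in flox livers (log2 change -0.86). Insig2, which encodes an ER protein that retains the SREBP complex, fell on the high-fat diet to 22.6 RPKM in knockout livers, against 52.8 RPKM in flox livers (log2 change -1.19, and -0.89 after scaling without the 50 most abundant genes). Rgs16, a regulator of G protein signalling that responds to feeding in liver, was listed at 29.2 RPKM in knockout high-fat and 27.9 RPKM in knockout chow livers, against 38.7 RPKM in flox high-fat and 10.2 RPKM in flox chow livers. The flox chow value stands apart from the other 3, so that Rgs16 rose both in knockout over flox livers on chow (log2 change 1.36) and in flox livers with the diet (1.82). Elovl3, a fatty acid elongase gene, fell with the diet to 18.7 RPKM in knockout high-fat livers, against 85.5 RPKM in knockout chow livers (log2 change -2.13), and to 29.1 RPKM in flox high-fat livers, against 60.5 RPKM in flox chow livers (-1.03, and -0.90 after that scaling). The DBP targets Por, the P450 reductase gene, and Alas1, of heme synthesis, did not pass the threshold. For knockout against flox they differed by -0.33 and 0.08 on the high-fat diet, and by -0.16 and 0.19 on chow. In the same list Nr1i3 and Cyp2a5 differed by -0.61 and 0.29 on the high-fat diet, and by -0.18 and -0.05 on chow. Ccrn4l, the gene of the deadenylase nocturnin, differed by 0.76 for knockout against flox on the high-fat diet, and by 1.04 after that scaling.

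**Figure D4:**
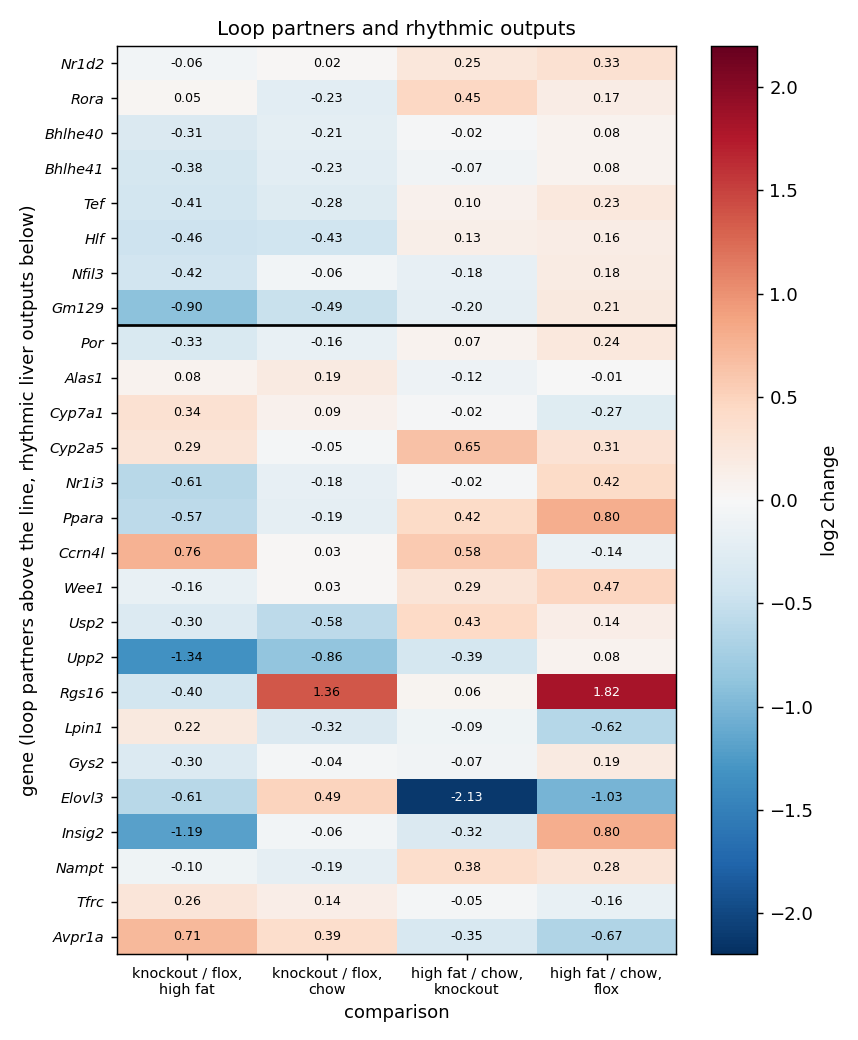
Log2 change (pseudocount of 1 RPKM) of 8 of the loop partners (above the line) and 18 rhythmic liver genes (below it) in the 4 comparisons, with higher values in the first-named group in red and lower in blue. The loop partners shown stay under 1 in either direction, whereas Rgs16, Elovl3, Upp2 and Insig2 reach it in some comparisons.

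Genes that answer to glucocorticoid, feeding, temperature and acute stimulation, all inputs to the liver clock, were read beside the members. In knockout livers, where Per1 on high fat stood at 2.25 times its chow value, the glucocorticoid target Fkbp5 stood at 7.89 RPKM on high fat and 4.61 RPKM on chow (log2 change 0.66). Sgk1 stood at 8.17 RPKM on high fat and 5.13 RPKM on chow (0.58), and Tsc22d3 at 21.1 RPKM on high fat and 14.7 RPKM on chow (0.49). Of the 8 glucocorticoid targets, 1 passed the threshold in that comparison, the metallothionein gene Mt1, which rose to 351 RPKM on high fat, against 163 RPKM on chow (1.10). Dusp1 (-0.34), Zbtb16 (-0.22) and Tat (-0.03) lay on the other side, and Mt2 differed by 0.78 (1.07 after scaling without the 50 most abundant genes). The median of the list was 0.54, against -0.11 over all genes, and in flox livers it was 0.02, where Fkbp5 differed by -0.03 and Per1 by 0.48. Of 5 immediate early genes tested, 1 passed in knockout livers with the diet: Atf3 rose to 2.38 RPKM on high fat, against 0.500 RPKM on chow (1.17). Igfbp1, a fasting and stress gene, rose to 49.7 RPKM on high fat, against 13.5 RPKM on chow in knockout livers (1.81), as the 1 gene past the threshold among 12 feeding and fasting genes. Whether these signals had a part in the Per1 value was not tested.

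For knockout against flox livers, Mt2 rose on the high-fat diet (log2 change 1.99) and on chow (1.52), and Mt1 rose on the high-fat diet (1.51). The feeding-induced genes Srebf1 (-2.11 on high fat and -1.16 on chow) and Thrsp (-1.18 and -1.26) fell on both diets, and Fasn fell on chow (-1.35). The call of Thrsp on the high-fat diet was lost after both rescalings (just under the threshold after centring, and -0.88 without the 50 most abundant genes). Igfbp1 (2.57) and Atf3 (1.17) rose on the high-fat diet. Egr1 was past the threshold there after both rescalings (1.07 and 1.18) and G6pc after scaling without the 50 most abundant genes (1.11), and neither was as deposited. None of 8 temperature-responsive genes passed the threshold in any of the 4 comparisons. The cold-induced gene Cirbp stood nearest to it, at 5.002 RPKM in knockout high-fat and 8.29 RPKM in knockout chow livers (log2 change -0.63).

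Markers of other liver cells differed between the same groups. The summed level of 6 cholangiocyte markers was 115 RPKM in knockout high-fat and 45.3 RPKM in knockout chow livers, against 24.7 RPKM in flox high-fat and 23.2 RPKM in flox chow livers. Spp1 alone made up 103 RPKM and 39.4 RPKM of the sums in knockout high-fat and knockout chow livers, and 20.6 RPKM and 19.7 RPKM of those in flox high-fat and flox chow livers. Epcam (log2 change 1.21), Spp1 (2.27) and Cd24a (1.44) rose in knockout over flox livers on the high-fat diet, 3 of 5 tested, and Spp1 rose with the diet in knockout livers (1.36). The sum of 6 macrophage markers was 177 RPKM in knockout high-fat and 97.7 RPKM in knockout chow livers, against 136 RPKM in flox high-fat and 105 RPKM in flox chow livers. Of these, Marco (1.21) and Cd5l (1.02) rose with the diet in knockout livers, the comparison that Per1 leads. The sum of 6 stellate cell markers was 149 RPKM in knockout high-fat and 119.5 RPKM in knockout chow livers, against 91.8 RPKM in flox high-fat and 96.6 RPKM in flox chow livers. Col1a1, a collagen gene in that list, rose in knockout high-fat livers over both flox high-fat (1.21) and knockout chow livers (1.03). The sum of 6 endothelial markers ranged from 60.7 to 69.5 RPKM and that of 5 lymphocyte markers from 2.71 to 4.57 RPKM over the 4 groups. Clec4g made up 35.2 to 47.8 RPKM of the endothelial sums. With the diet in flox livers Clec4g was lower (log2 change -0.43) and the other endothelial markers were higher, with a list median of 0.32. The endothelial sums therefore do not follow most of their members there. Among 6 hepatocyte markers tested, Apoa1 and Cps1 fell in knockout against flox livers on the high-fat diet (log2 changes of -1.23 and -1.04; Cps1 was not past the threshold after centring, and neither gene after scaling without the 50 most abundant genes), and the list's median was -0.68 there and -0.48 on chow. The erythroid gene Alas2 was listed at 37.2 RPKM in knockout high-fat and 75.1 RPKM in knockout chow livers, against 60.3 RPKM in flox high-fat and 62.9 RPKM in flox chow livers. In bulk liver, fewer cells of a type and less RNA per cell cannot be told apart, and the part of cell mixture in the clock gene values was not tested.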

How the data were processed

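The authors deposited RPKM values, 1 per gene and group, as the file headers say. The submitters' processing notes list TopHat2 2.0.7, Cuffdiff 2.1.1 and mm10 without saying what each did. How the authors annotated genes, merged both libraries of a group and scaled between groups is not given in the sources used here. Files were assigned to groups by name, had the same 23179 rows, and repeated symbols were summed. Depth per library is unknown: low values times transcript length fell within 0.05 of whole steps, up to 5 steps, for only 17.3% to 20.5% of values. Counts and medians over all genes cover 10351 genes that reached 1 RPKM in any group, leaving out genes listed at 0 in a group compared, since an exact 0 can be a failed estimate. Members were read whether they passed or not. There was no test, as each group has 1 value. The calculation was tested on simulated data.

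The arm difference is the mean log2 change of 3 activators minus that of 6 repressors. All members are named, and of each further pathway list those past the threshold or up to 4 with the largest change; others were added after their values were seen. Of these lists, 2 genes are not reported here by name, though counts and medians include them. The members and lists were chosen with earlier results of these data known. Exon overlaps are from GENCODE release M21 on GRCm38, which mm10 denotes, and promoters from RefSeq (GRCm38.p6). Per2 had no promoter entry. Of 3 erythroid markers, 1 (Alas2) matched a symbol. Python 3.11.15, numpy 2.4.6, pandas 2.3.3 and matplotlib 3.10.9 were used.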

Additional observations from a re-analysis of the deposited data

Results flagged for a closer look

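In 3 of the rhythmic liver genes the change had opposite signs under the same contrast in 2 diets or 2 genotypes, with a difference of at least 1 on the log2 scale. Each group has 1 value, so these differences were not tested. Rgs16 differed by -0.40 between knockout and flox livers on the high-fat diet and by 1.36 on chow (difference -1.76). Elovl3 differed by -0.61 between knockout and flox livers on the high-fat diet and by 0.49 on chow (difference -1.11). Insig2 differed by -0.32 between high fat and chow in knockout livers and by 0.80 in flox livers (difference -1.13). After centring the groups and after scaling without the 50 most abundant genes, the difference was -1.61 and -1.59 for Rgs16, but under 1 in size for Elovl3 (-0.97 and -0.96) and Insig2 (-0.98 and -0.97). None of the 10 clock genes met this rule. A difference of 1 or more in either direction was found in 1.23% of 10319 genes, and how many of those also had opposite signs was not counted.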

How the results depend on the processing

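No paired analysis was possible because the deposited columns hold 1 value per group and carry no replicate numbers, and no replicate could be left out. The number of clock genes past the threshold stayed at 0 in all comparisons and settings except high fat against chow in knockout livers, where it was 1, Per1, under a pseudocount of 0.1, both rescalings, a threshold of 1.5-fold and no pseudocount (the last chosen after seeing the data). The arm difference reached the threshold in 0 settings. It ranged from 0.01 to 0.23 for knockout against flox on high fat, from 0.13 to 0.64 on chow, from -0.40 to -0.09 for high fat against chow in knockout livers, from -0.17 to 0.23 in flox livers, and from -0.56 to -0.02 for the difference of genotype changes. Of 50 single-gene changes, 43 kept their sign under 6 alternatives, most of which could not turn the sign of a difference between 2 groups. A pseudocount leaves that sign as it is, and taking the highest of repeated rows changed no member, as each had 1 row. Only the 2 rescalings could turn it. For the difference of genotype changes a pseudocount could turn the sign as well. Gene counts past the threshold, 303 for knockout against flox on high fat, were 494 with a pseudocount of 0.1, 156 with a pseudocount of 5 and 1190 at 1.5-fold. On chow they were 167, against 263, 96 and 509 in the same order of settings. For high fat against chow they were 151 in knockout livers, against 305, 85 and 762, and 66 in flox livers, against 124, 40 and 300. For the difference of genotype changes they were 127, against 240, 68 and 552. The split of higher and lower genes moved with scaling, to a median log2 ratio of 0 and without the 50 most abundant genes in that order. For knockout against flox on high fat, 111 higher and 192 lower became 146 and 116, then 193 and 90. For high fat against chow in knockout livers, 69 and 82 became 96 and 60, then 134 and 47. In flox livers, 22 and 44 became 23 and 41, then 31 and 35. For the difference of genotype changes, 68 and 59 became 95 and 36, then 105 and 35. For knockout against flox on chow, 26 and 141 became 27 and 126, then 33 and 104. Unknown depth limits what Arntl and Npas2, under 1 RPKM, can show.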

Other observations

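Dbp and Arntl were each compared with 6081 other genes that had at least 5 RPKM in a group, by the distance between profiles of log2(RPKM + 1) over the 4 groups, each centred on its own mean. Nearest to Dbp were 4933426M11Rik, Gopc, Kng2, Golim4 and Copg (distances of 0.033 to 0.052), and nearest to its sign-reversed profile Nap1l1, Trip6, Efha1, Cln3 and Cbfb (0.032 to 0.046). The Dbp profile spans 0.34 on that scale, below the median span of 0.42 among candidates. Arntl spans 0.11, so that its nearest genes, Mms19, Wdr36, Ubp1, Bap1 and Pigq (0.007 to 0.023), and those nearest to its reversal, Prpf38b, Hnrnph1, Akap8l, Ankrd27 and Slc9a3r2 (0.015 to 0.044), are genes with nearly level values. 4 points make such likeness a description only.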
